A study of Arabidopsis thaliana with 9 samples.

Results

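SAUR genes, the small auxin up RNA family, were followed in roots of Arabidopsis thaliana Col-0 wild type. Members were the genes that the authors' deposited comparison table describes as encoding a SAUR-like auxin-responsive protein. There were 78 of them among 37547 genes in the expression files. Names come from RefSeq for 76 members, and AT1G29490 and AT1G29510, which share one name there, are given by locus. Roots came from 3 groups of 3 libraries each. Cesium plants grew on 0.5 mM KCl with CsCl, whose amount is labelled as 0.3 mL with no concentration. Low potassium plants grew on 0.025 mM KCl and control plants on 0.5 mM KCl. The medium held nitrate, phosphate, micronutrients and sucrose in agarose, and all plants were kept at 22 °C with 16 h of light and 8 h of dark. Plant age and time on the medium are not given in the labels. The labels call the libraries biological replicates but name no separate cultures or plants, so each p-value reflects variation among these samples, possibly technical.

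SAUR genes encode small plant proteins, and the founding members were found as short-lived transcripts that appear within minutes of auxin addition. SAUR19-type proteins inhibit clade D type 2C protein phosphatases. Those phosphatases remove an activating phosphate from plasma membrane proton pumps, so SAUR proteins keep the pumps active, acidify the wall and promote cell expansion. Members differ in their inducers, and some answer to light, other hormones or age.

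Expression was measured as FPKM, fragments scaled to transcript length and to mapped fragments. Fragment totals per library were not used here. Nuclear photosynthesis genes, all 12 of them at or above a mean of 1 FPKM, summed to 1139 to 1958 FPKM in cesium, 317 to 365 in low potassium and 459 to 619 in control roots. Of 16 shoot epidermis and stomata markers, 2 reached a mean of 1 FPKM, and YAB5, MUTE, FAMA and EPF1 were at 0 throughout. The list summed to 56.1 to 74.1 FPKM in cesium, 15.1 to 21.1 in low potassium and 31.8 to 40.7 in control roots. PDF1 alone made up most of these sums, averaging 58.6 FPKM in cesium, 15.5 in low potassium and 33.6 in control roots. All 5 endodermis markers were detected, and their sum was 228 to 297 FPKM in cesium, 247 to 292 in low potassium and 516 to 624 in control roots. Root hair markers, 6 of 6 detected, summed to 116 to 182 FPKM in cesium, 76.4 to 243 in low potassium and 251 to 396 in control roots. The 4 root cap markers summed to 13.9 to 19.9, 7.80 to 17.8 and 13.1 to 21.2 FPKM in the same order of groups. The part of these marker shifts in the SAUR values was not tested. In bulk roots, fewer cells of a type and less RNA per cell cannot be told apart. On the third principal component cesium replicate 3 stood away from the other two of its group, and calls that change without it are given beside the results.

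Most of the family was silent or nearly silent in these roots. The requirement for testing, a 9-library mean of 1 FPKM or more, was met by 29 of 78 members (37.2%) against 52.0% of all genes. All genes here include noncoding ones, so the 52.0% is not a share of protein-coding genes alone. Of the other 49 members, 19 were at 0 in every library, and the highest single value among the 49 was 1.80 FPKM, for SAUR71 in control replicate 1. On either side of the limit stood SAUR35 at a mean of 1.28 FPKM and SAUR34 at 0.973 FPKM. Since a member can pass this limit through the group where it is high, the counts below are given over tested members only. The summed FPKM of all 78 members was 624, 591 and 654 in cesium, 722, 782 and 764 in low potassium and 680, 628 and 704 in control libraries. The low potassium libraries thus held the 3 highest sums and the ranges of cesium and control overlapped. Summed FPKM of all genes also differed, from 714169.7 in cesium replicate 3 to 844152.9 in low potassium replicate 2. As a share of it, members took 0.0744, 0.0750 and 0.0916% in cesium libraries. Their shares were 0.0868, 0.0927 and 0.0991% in low potassium and 0.0850, 0.0810 and 0.0879% in control libraries, so all 3 ranges overlapped. Per length, a few genes made up most of the members' sum: the 6 highest members of each library together took 62.5 to 68.8% of it. By mean over the 9 libraries the 6 highest were SAUR32, SAUR59, SAUR31, SAUR36, SAUR30 and SAUR37.

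The members best known for driving growth of stems and leaves were among those at or near 0 FPKM. All 6 genes of the SAUR19 subfamily, SAUR19 to SAUR24, stayed at or below 0.586 FPKM, and 3 of them were at 0 in every library. The 8 genes listed here for the SAUR63 subfamily, which also promotes organ elongation, all stayed at or below 0.560 FPKM. SAUR15, the classical auxin-induced SAUR-AC1, was above 0 in 1 library only, at 0.226 FPKM in cesium replicate 3. In the SAUR41 subfamily, SAUR41 and SAUR72 were well expressed, at means of 26.3 and 27.2 FPKM, while SAUR40 and SAUR71 averaged 0.787 and 0.883 FPKM. Members of the SAUR19 subfamily are close copies of each other, with identical bases over 87.7 to 95.2% of the longer coding sequence. Reads shared between such copies may be split or dropped in counting, which leaves their low values less certain. Within the 8 listed SAUR63 subfamily genes identity ranged more widely, from 45.8 to 90.5%. SAUR62 of that subfamily shared 97.0% with SAUR75, which is not among the 8, so its low value is also less certain. Tested members were less alike, and the closest relative of any of them reached 83.2% (SAUR8 and SAUR50).

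The split was also viewed by position in the genome. Starts within 10 kb of another member defined 9 neighbour groups holding 37 genes, of which 9 were tested, while 20 of the 41 members standing alone were tested. The groups of SAUR61 to SAUR65, of SAUR66 with AT1G29490 and AT1G29510, of SAUR26 to SAUR29 with SAUR73, of SAUR13 to SAUR16 and of SAUR19 to SAUR24 held no tested gene. These include the SAUR19 subfamily and the listed SAUR63 subfamily genes described above, so the position counts repeat that result in part. The low values of the close SAUR19 copies are less certain here too. In the pairs of SAUR51 with SAUR52 and of SAUR70 with SAUR76, both genes were tested. The run of SAUR49, SAUR50 and SAUR1 to SAUR5 on chromosome 4 held 4, with means of 25.2 FPKM for SAUR49, 11.8 for SAUR50, 4.13 for SAUR4 and 3.05 for SAUR5. SAUR gene bodies were simple, with 1 exon in 72 of 78 members and a median coding length of 363 bases.

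**Figure D1:**
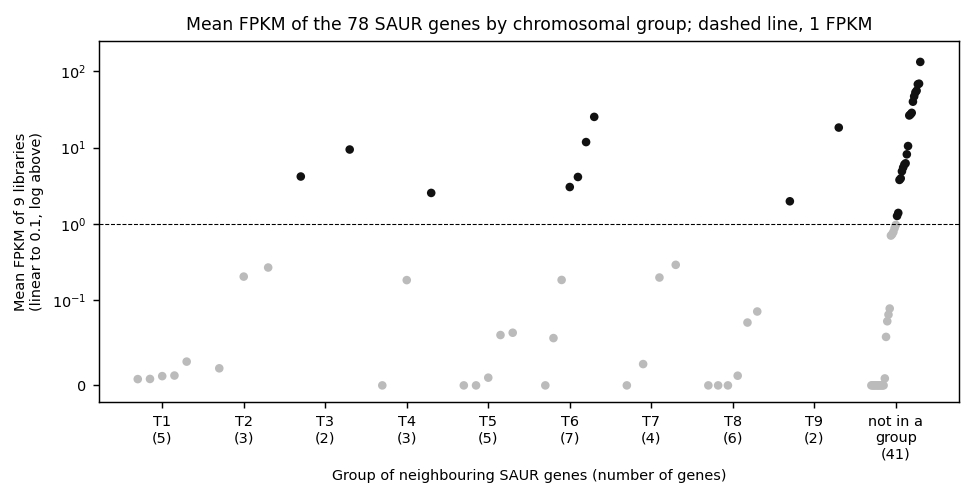
Mean FPKM over 9 libraries of each of the 78 SAUR genes (y axis, linear to 0.1 and log above) by group of neighbouring genes on the chromosome (x axis, number of genes in brackets). Black points are the 29 genes at or above 1 FPKM (dashed line), 20 of which lie outside any group.

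**Figure D2:**
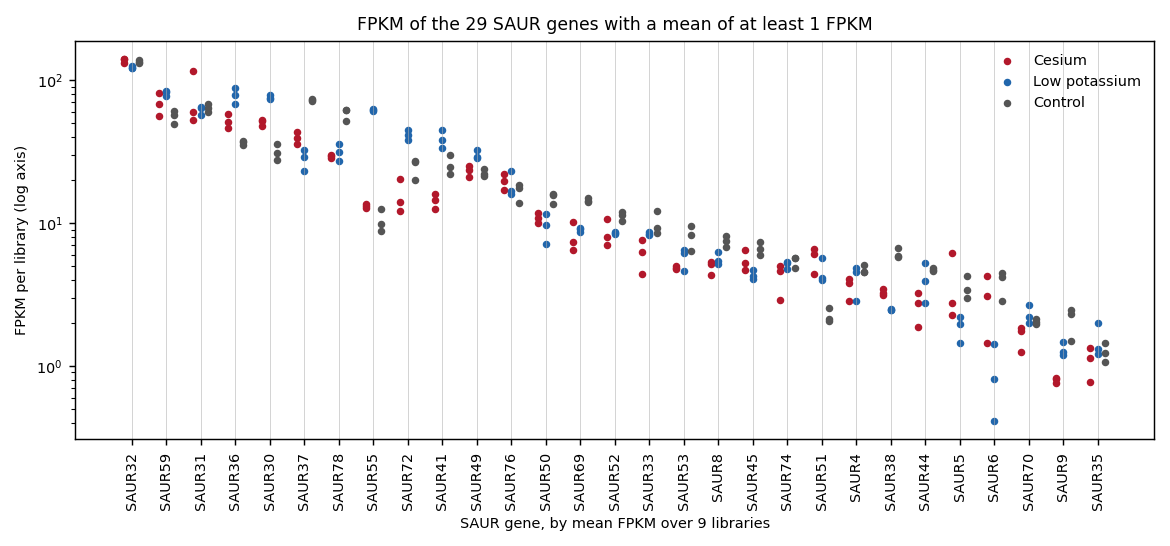
FPKM in each library (log y axis) for the 29 tested SAUR genes, ordered by mean over 9 libraries, in cesium, low potassium and control roots. SAUR32 lies highest in every library, and SAUR31 has 1 cesium library at 116 FPKM above the rest.

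Cesium lowered more expressed SAUR genes than it raised. With limma's adjusted p under 0.05, 11 of the 29 tested members were lower and 3 were higher in cesium than in control roots, where 12.7% of all 19536 tested genes were lower and 10.8% were higher. The median log2 change of the 29 was -0.33, beside 0.02 over all genes. SAUR78 had the most negative log2(FPKM + 1) change and SAUR9 the lowest ratio of means, SAUR51 rose most, and the 2 expressed genes of the SAUR41 subfamily both fell. Without cesium replicate 3 the counts were 12 lower and 4 higher, with SAUR52 (log2 change -0.51, limma adjusted p = 0.00483) and SAUR59 (0.42, limma adjusted p = 0.0218) added, and without control replicate 3 they were 7 lower and 4 higher.

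SAUR78, a member whose protein binds ethylene receptors in yeast assays, had 28.4, 29.3 and 30.1 FPKM in cesium against 62.3, 52.1 and 62.0 FPKM in control libraries. Its log2 change, on the log2(FPKM + 1) scale used throughout, was -0.98 (SE 0.11, limma adjusted p = 0.000291). SAUR37 had 35.6, 39.1 and 43.1 FPKM in cesium against 73.6, 71.4 and 73.2 FPKM in control libraries, a change of -0.88 (SE 0.12, limma adjusted p = 0.000888). The groups did not overlap for either gene. SAUR38, the closest relative of SAUR37 with 75.3% identical coding bases, had 3.12, 3.45 and 3.25 FPKM in cesium against 6.66, 5.91 and 5.75 FPKM in control libraries, a change of -0.73 (SE 0.09, limma adjusted p = 0.000633). SAUR37 and SAUR38 were at 0.540 and 0.536 of their control means, although their FPKM lay far apart.

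SAUR41, expressed in the quiescent centre and the cortex and endodermis initials of the root tip and known to promote cell expansion, had 14.6, 15.9 and 12.4 FPKM in cesium against 24.6, 22.2 and 30.1 FPKM in control libraries. Its change was -0.79 (SE 0.14, limma adjusted p = 0.00356), with no overlap. SAUR72, of the same subfamily, had 12.2, 14.01 and 20.3 FPKM in cesium against 27.3, 20.1 and 26.6 FPKM in control libraries, and the highest cesium library just overlapped the lowest control one. Its change of -0.66 (SE 0.18, limma adjusted p = 0.0238) missed the threshold when any of cesium replicate 1 or 2 or control replicate 1 or 3 was left out, with adjusted p up to 0.0834, and in the fit on the 6 libraries compared, with adjusted p = 0.057.

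Among the other members that fell in cesium, SAUR69 averaged 7.97 FPKM in cesium against 14.4 in control roots, and SAUR9, whose protein inhibits clade D phosphatases, averaged 0.798 against 2.09 FPKM. SAUR9 was thus at 0.382 of its control mean, below the 0.498 of SAUR78, since adding 1 to FPKM shrinks the change of low genes. The log2 changes of SAUR69 and SAUR9 were -0.80 (SE 0.13, limma adjusted p = 0.00229) and -0.77 (SE 0.15, limma adjusted p = 0.00592). SAUR33, SAUR53 and SAUR8 fell by 0.64, 0.61 and 0.51 on the log2 scale, with limma adjusted p of 0.0229, 0.0162 and 0.00882. SAUR78, SAUR37, SAUR38, SAUR41, SAUR69 and SAUR9 passed in every alternative that tested them but 1. The exception was also requiring a log2 change of at least 1, which left 0 members lower. Since 7 members were lower without control replicate 3, the calls of SAUR33, SAUR53 and SAUR8 did not all hold there. SAUR44 fell by 0.68 (limma adjusted p = 0.031), but its deposited region is shared with a neighbouring gene, the authors' deposited table gives it q = 0.861, and it missed the threshold without cesium replicate 1 or 2 or any 1 control library (adjusted p up to 0.0929).

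The 3 members that rose in cesium were SAUR51, SAUR30 and SAUR36. SAUR51 had 6.58, 4.38 and 6.04 FPKM in cesium against 2.56, 2.14 and 2.08 FPKM in control libraries, 2.51 times the control mean, with a log2 change of 1.02 (SE 0.16, limma adjusted p = 0.00188). Its neighbour SAUR52, on the other strand, was not raised and averaged 8.60 FPKM in cesium against 11.2 FPKM in control roots (log2 change -0.36, limma adjusted p = 0.0678). SAUR30 had 52.3, 51.8 and 47.7 FPKM in cesium against 31.1, 27.8 and 35.9 FPKM in control libraries. SAUR36, also known as the senescence-associated gene SAG201, had 58.1, 50.9 and 46.3 FPKM in cesium against 37.1, 35.4 and 37.3 FPKM in control libraries. The log2 changes of SAUR30 and SAUR36 were 0.67 (SE 0.10, limma adjusted p = 0.00111) and 0.48 (SE 0.11, limma adjusted p = 0.0118), and neither gene's groups overlapped.

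The most abundant member did not pass the test. SAUR32, which affects the apical hook of seedlings when overexpressed, averaged 138 FPKM in cesium against 136 FPKM in control roots, with a 95% interval of the log2 change of -0.13 to 0.18. SAUR31 had 60.3, 52.5 and 116 FPKM in cesium against 63.5, 59.9 and 67.8 FPKM in control libraries. Its change of 0.17 (limma adjusted p = 0.638) became -0.18 without cesium replicate 3, so that library alone set its direction. SAUR5 was likewise highest in cesium replicate 3, with 2.74, 2.26 and 6.20 FPKM in cesium against 4.24, 3.41 and 2.98 FPKM in control libraries. Its change of -0.02 (limma adjusted p = 0.959) was -0.37 without that library (limma adjusted p = 0.131).

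**Figure D3:**
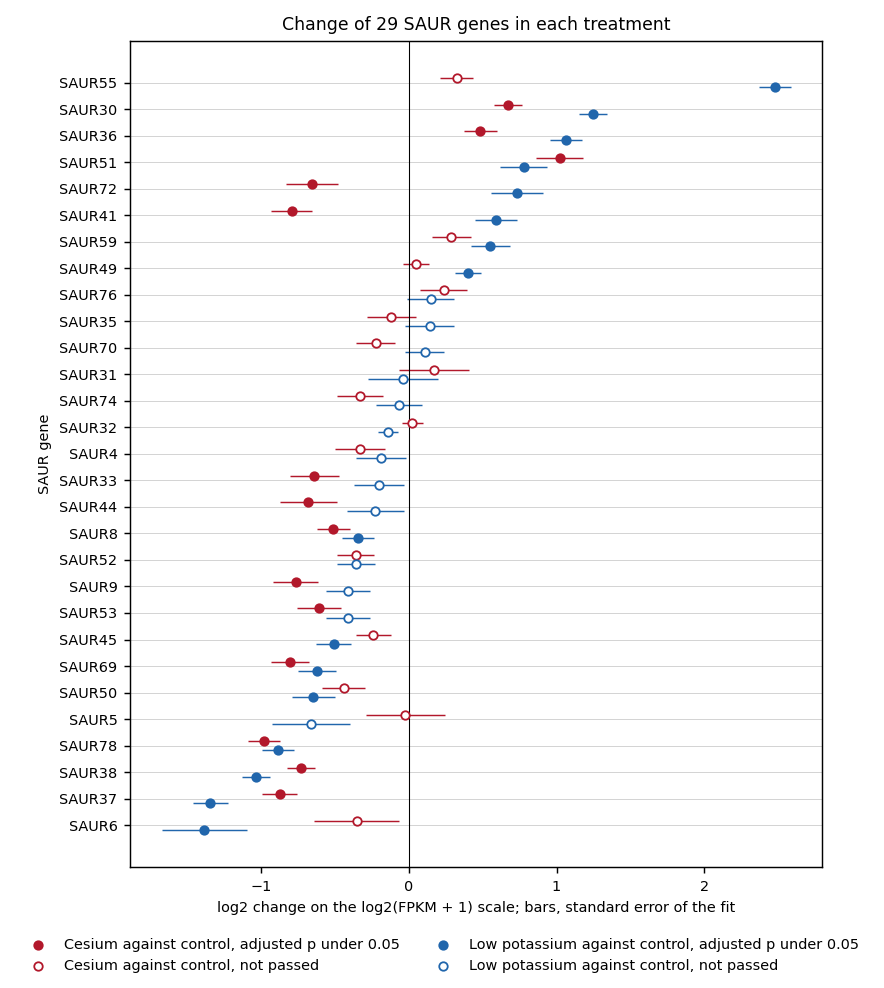
Log2 change on the log2(FPKM + 1) scale (x axis) of the 29 tested SAUR genes (y axis) in cesium and in low potassium, each against the same 3 control libraries. Filled points passed an adjusted p of 0.05 and bars are standard errors of the fit. SAUR55 lies far to the right in low potassium at 2.48, and SAUR41 and SAUR72 lie on opposite sides of 0 in the 2 treatments.

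Low potassium moved as many expressed SAUR genes up as down. By the same test 8 of the 29 members were higher and 8 were lower in low potassium than in control roots, where 18.8% of all tested genes were higher and 18.8% were lower. The median log2 change of the 29 was -0.19, beside 0.00 over all genes. Leaving out cesium replicate 3, which enters through the shared spread, gave 11 lower, adding SAUR5, SAUR52 and SAUR9. By ratio of group means SAUR55 stood apart with close to a 6-fold rise, and SAUR30, SAUR36 and SAUR51 rose more than 2-fold. On the log2(FPKM + 1) scale SAUR51 rose by 0.78, and SAUR37, SAUR38 and SAUR6 fell by more than 1.

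SAUR55 had 62.1, 61.1 and 62.5 FPKM in low potassium against 9.83, 8.83 and 12.5 FPKM in control libraries, 5.95 times the control mean. Its log2 change of 2.48 (SE 0.11, limma adjusted p = 1.99e-06) lay between 2.38 and 2.61 under the alternatives run, all past the threshold. SAUR55 is a single-exon gene with a coding length of 552 bases, and its closest member shares 55.4% of coding bases, the lowest such value among tested members.

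SAUR30 had 73.5, 75.6 and 78.3 FPKM in low potassium against 31.1, 27.8 and 35.9 FPKM in control libraries (log2 change 1.24, SE 0.10, limma adjusted p = 2.54e-05). SAUR36 had 67.7, 87.6 and 78.8 FPKM in low potassium against 37.1, 35.4 and 37.3 FPKM in control libraries (log2 change 1.06, SE 0.11, limma adjusted p = 0.000126). Every low potassium library lay above every control library for both genes. SAUR59, the closest relative of SAUR36 with 70.0% identical coding bases, averaged 81.6 FPKM in low potassium against 55.6 FPKM in control roots (log2 change 0.55, SE 0.13, limma adjusted p = 0.00987). SAUR51 averaged 4.63 against 2.26 FPKM, and SAUR49 averaged 29.9 against 22.5 FPKM. Their log2 changes were 0.78 (limma adjusted p = 0.00484) and 0.40 (limma adjusted p = 0.0074).

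SAUR41 and SAUR72 both rose in low potassium. SAUR41 had 33.7, 45.1 and 38.2 FPKM in low potassium against 24.6, 22.2 and 30.1 FPKM in control libraries (log2 change 0.59, SE 0.14, limma adjusted p = 0.00977). SAUR72 had 38.1, 44.6 and 41.2 FPKM in low potassium against 27.3, 20.1 and 26.6 FPKM in control libraries (log2 change 0.73, SE 0.18, limma adjusted p = 0.0101). Neither gene's groups overlapped. The 5 root meristem markers summed to 51.3 to 64.7 FPKM in cesium, 34.0 to 34.8 in low potassium and 42.4 to 52.8 in control roots. Their cesium and control ranges overlapped. This list, like the nuclear photosynthesis and the shoot epidermis lists above, ran in the reverse order of the SAUR41 and SAUR72 means. The part of these lists in the SAUR41 and SAUR72 values was not tested.

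The falls in low potassium included the SAUR37 and SAUR38 pair again. SAUR37 had 29.2, 32.6 and 23.1 FPKM in low potassium against 73.6, 71.4 and 73.2 FPKM in control libraries (log2 change -1.34, SE 0.12, limma adjusted p = 5.92e-05). SAUR38 had 2.49, 2.46 and 2.44 FPKM in low potassium against 6.66, 5.91 and 5.75 FPKM in control libraries (log2 change -1.03, SE 0.09, limma adjusted p = 6.33e-05). Their means were 0.390 and 0.404 of the control means, with no overlap. SAUR78 averaged 31.5 FPKM in low potassium against 58.8 FPKM in control roots (log2 change -0.88, SE 0.11, limma adjusted p = 0.000325), and SAUR69 averaged 9.02 against 14.4 FPKM (log2 change -0.62, limma adjusted p = 0.00531). SAUR50, which light induces in cotyledons, averaged 9.44 against 15.1 FPKM, SAUR45 averaged 4.35 against 6.63 FPKM and SAUR8 averaged 5.65 against 7.44 FPKM, with limma adjusted p of 0.00766, 0.00898 and 0.0331. SAUR8 missed the threshold without low potassium replicate 1 or 2 or control replicate 1 or 3, with adjusted p up to 0.113, and under the authors' deposited table, with q = 0.162.

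SAUR6 had 0.804, 0.412 and 1.42 FPKM in low potassium against 4.17, 2.87 and 4.49 FPKM in control libraries (log2 change -1.38, SE 0.29, limma adjusted p = 0.00526). The groups did not overlap, but SAUR6 overlaps SAUR7 on the same strand and the authors' deposited table gives it q = 0.0737. SAUR32 averaged 123 FPKM in low potassium against 136 FPKM in control roots without passing the test (log2 change -0.14, 95% interval -0.30 to 0.01, limma adjusted p = 0.134).

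By the authors' deposited q under 0.05, 3 members were higher and 11 lower in cesium, of 35 with a test there. In low potassium 8 were higher and 7 lower, of 34 with a test. These sets differ from the 29 members tested here. Of all genes with a test in that table, 10.2% were higher and 12.3% lower in cesium, and 14.2% were higher and 15.9% lower in low potassium.

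**Figure D4:**
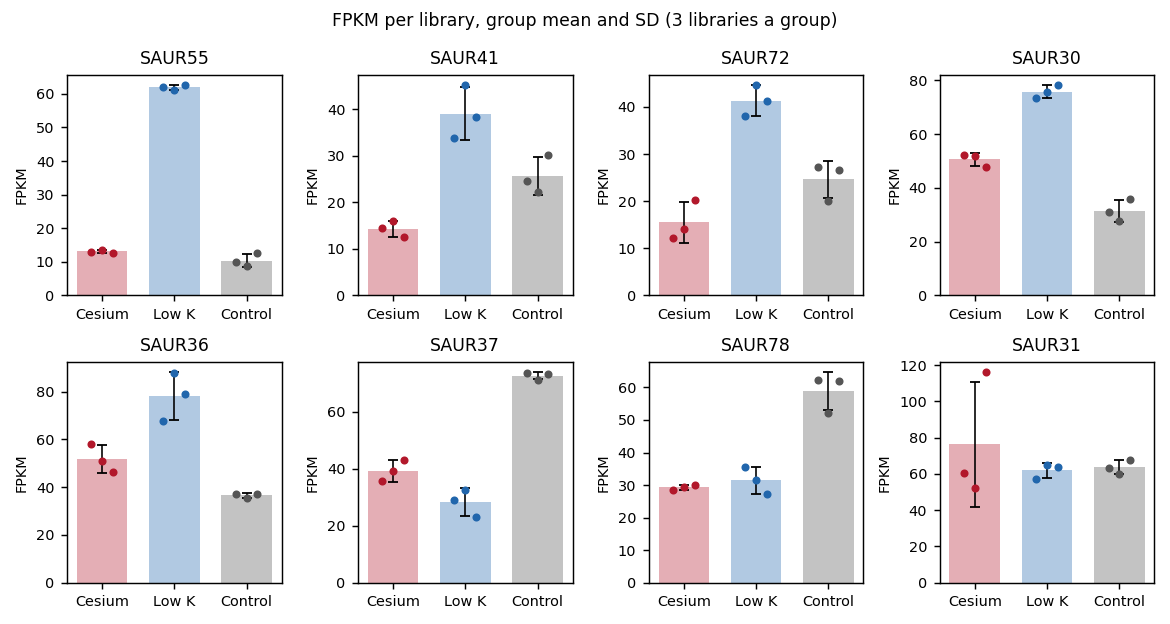
FPKM in each library (points), group mean (bars) and SD (whiskers, n = 3) for 8 SAUR genes in cesium, low potassium and control roots. SAUR55 is high in low potassium alone (61.1 to 62.5 FPKM). By group mean SAUR41 and SAUR72 order as low potassium, control and cesium from high to low. For SAUR72 the highest cesium library just overlaps the lowest control one. SAUR37 and SAUR78 are highest in control, and SAUR31 has 1 high cesium library.

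The treatments were then set against each other directly, without the control libraries in the contrast. Cesium roots had 3 members higher and 6 lower than low potassium roots among the 29, where 16.7% of all tested genes were higher and 17.4% lower. Without cesium replicate 3 the counts were 2 higher and 7 lower, since SAUR6 missed the threshold (limma adjusted p = 0.0597) and SAUR69 passed as lower (limma adjusted p = 0.0142). SAUR55 had 13.1, 13.6 and 12.7 FPKM in cesium against 62.1, 61.1 and 62.5 FPKM in low potassium libraries (log2 change -2.15, SE 0.11, limma adjusted p = 4.26e-06). Against control, the cesium values of SAUR55 gave a log2 change of 0.32, which did not pass (limma adjusted p = 0.0587).

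SAUR41 and SAUR72 differed between treatments by nearly the same amount, with log2 changes of -1.38 (SE 0.14, limma adjusted p = 0.000126) and -1.39 (SE 0.18, limma adjusted p = 0.000396). Their means were 14.3 FPKM in cesium against 39.0 FPKM in low potassium roots for SAUR41 and 15.5 against 41.3 FPKM for SAUR72. Of all tested members these were the 2 that fell in cesium and rose in low potassium, relative to the same control libraries, with both changes past the threshold. For SAUR72 the fall in cesium is less certain, since it missed the threshold under several alternatives given above. SAUR30, SAUR36 and SAUR49 were also lower in cesium than in low potassium, by 0.57, 0.58 and 0.35 on the log2 scale, with limma adjusted p of 0.00173, 0.00343 and 0.0139. SAUR49 had an adjusted p of 0.0508 without low potassium replicate 3. SAUR37 was higher in cesium by 0.47 (SE 0.12, limma adjusted p = 0.0143), in all 3 cesium libraries above all 3 low potassium libraries.

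SAUR38 and SAUR6 were higher in cesium by 0.30 and 1.03 on the log2 scale, with limma adjusted p of 0.0325 and 0.0212. Both are less certain: without low potassium replicate 1, or without low potassium replicate 2, SAUR37 was the single member called higher. SAUR38 also missed the threshold in the fit on the 6 libraries compared (adjusted p = 0.066). SAUR51, SAUR69 and SAUR78 did not pass, and the 95% intervals of their log2 differences were -0.11 to 0.60, -0.47 to 0.11 and -0.34 to 0.15.

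The 300 bases before the annotated start show what the promoters of the leading genes hold. They were read from RefSeq, assembly TAIR10.1, and searched on both strands. The letters searched for were TGTCTC and TGTCGG, 2 forms of the auxin response element bound by ARF transcription factors, and the G-box CACGTG. Capitals mark a match, and an element on the opposite strand appears as its reverse complement. SAUR55, SAUR41, SAUR72 and SAUR37 are shown as the members with the clearest differences, SAUR59 as the tested member with a match and SAUR15 as the classical auxin-induced gene.
SAUR55 (chr5:20644225-20644524, plus strand): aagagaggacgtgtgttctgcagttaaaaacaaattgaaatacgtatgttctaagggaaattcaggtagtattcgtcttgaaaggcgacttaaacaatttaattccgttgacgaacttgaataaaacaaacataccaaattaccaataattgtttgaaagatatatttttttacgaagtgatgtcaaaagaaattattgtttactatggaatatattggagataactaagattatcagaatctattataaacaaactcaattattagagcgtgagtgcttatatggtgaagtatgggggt
SAUR41 (chr1:5645444-5645743, minus strand): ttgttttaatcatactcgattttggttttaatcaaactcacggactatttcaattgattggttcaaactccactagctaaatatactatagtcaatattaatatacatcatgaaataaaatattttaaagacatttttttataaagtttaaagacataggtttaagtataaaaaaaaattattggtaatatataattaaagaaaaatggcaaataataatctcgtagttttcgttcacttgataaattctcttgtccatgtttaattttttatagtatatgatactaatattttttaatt
SAUR72 (chr3:4079628-4079927, minus strand): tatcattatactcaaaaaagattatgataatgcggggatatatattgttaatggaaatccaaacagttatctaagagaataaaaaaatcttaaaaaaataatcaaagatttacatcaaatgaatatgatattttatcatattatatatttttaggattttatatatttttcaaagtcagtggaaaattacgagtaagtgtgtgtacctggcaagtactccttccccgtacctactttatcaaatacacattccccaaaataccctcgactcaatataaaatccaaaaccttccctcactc
SAUR37 (chr4:15194666-15194965, minus strand): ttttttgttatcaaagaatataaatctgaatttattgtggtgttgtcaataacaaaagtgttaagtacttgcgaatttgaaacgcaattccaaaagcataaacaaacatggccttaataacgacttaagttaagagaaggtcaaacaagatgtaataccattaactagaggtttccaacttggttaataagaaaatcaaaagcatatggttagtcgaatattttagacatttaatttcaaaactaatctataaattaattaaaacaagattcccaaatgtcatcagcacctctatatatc
SAUR59 (chr3:22434564-22434863, plus strand): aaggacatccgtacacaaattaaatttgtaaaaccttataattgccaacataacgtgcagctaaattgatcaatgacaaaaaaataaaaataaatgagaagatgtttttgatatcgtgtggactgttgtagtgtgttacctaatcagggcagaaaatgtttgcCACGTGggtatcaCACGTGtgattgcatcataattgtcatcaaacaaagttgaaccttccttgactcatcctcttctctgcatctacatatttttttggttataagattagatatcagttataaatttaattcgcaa
SAUR15 (chr4:18125757-18126056, plus strand): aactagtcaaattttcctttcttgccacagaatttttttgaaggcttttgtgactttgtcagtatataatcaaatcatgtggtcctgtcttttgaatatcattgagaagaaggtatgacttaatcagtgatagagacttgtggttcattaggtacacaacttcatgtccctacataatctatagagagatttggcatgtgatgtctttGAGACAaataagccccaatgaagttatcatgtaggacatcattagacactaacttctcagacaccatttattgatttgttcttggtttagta

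TGTCTC was found in 0 of the 29 tested members, in 7 of all 78 and in 12.97% of 27443 protein-coding genes over windows of the same length. TGTCGG was in 0 of the 29, in 2 of the 78 and in 4.91% of all genes. The G-box was in SAUR59 alone, with 2 matches 137 and 124 bases upstream, beside 7.09% of all genes. The 7 members with TGTCTC, namely SAUR62, SAUR66, AT1G29510, SAUR7, SAUR15, SAUR20 and SAUR22, were all below the limit for testing. In SAUR15 the match begins 92 bases upstream of the start. A match is a description of the letters and not evidence of binding, and the absence of one says only that these letters are not in this window.

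Other genes of the auxin pathway were counted by the same fit. Beside them, 10.8% of all tested genes were higher and 12.7% lower in cesium, and 18.8% were higher and 18.8% lower in low potassium. Between cesium and low potassium the shares were 16.7% higher and 17.4% lower. Aux/IAA genes, whose proteins repress auxin responses and many of which auxin itself induces, had 0 of 22 tested members higher and 9 lower in cesium, with a median log2 change of -0.36, and 0 higher and 8 lower in low potassium, with a median of -0.22. IAA19 averaged 3.68 ± 0.80 FPKM in cesium, 3.12 ± 0.24 in low potassium and 10.9 ± 1.0 in control roots (SD, n = 3), with log2 changes of -1.36 (limma adjusted p = 0.000159) and -1.53 (limma adjusted p = 5.86e-05). Of 6 tested GH3 genes, which conjugate auxin to amino acids, 1 was higher and 2 lower in cesium and 0 higher and 2 lower in low potassium. GH3.2 averaged 3.404 ± 0.451 FPKM in cesium, 4.84 ± 0.81 in low potassium and 7.91 ± 0.77 in control roots, and passed as lower in both.

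Of 6 TIR1/AFB receptor genes, 0 were higher and 1 lower in cesium, and 2 were higher and 1 lower in low potassium. AFB1 passed as lower in both, by 0.30 in cesium and 0.50 in low potassium on the log2 scale. Of 13 ARF genes, 2 were higher and 3 lower in cesium, and 4 were higher and 3 lower in low potassium. For lists this small, these receptor and ARF counts lie near the shares of all genes given above. ARF5, the activator MONOPTEROS, averaged 33.5 ± 3.2 FPKM in cesium, 33.2 ± 1.2 in low potassium and 17.1 ± 0.7 in control roots, with log2 changes of 0.93 and 0.92.

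Clade D phosphatases and proton pumps act downstream of SAUR proteins in the growth pathway. Of 9 genes listed as clade D phosphatases, 1 was higher and 1 lower in cesium (11.1% each, near the 10.8% and 12.7% of all genes). In low potassium 4 were higher and 1 lower, beside 18.8% of all genes in each direction. Between cesium and low potassium, 0 were higher, 5 were lower and 4 did not pass. AT5G06750 of that list averaged 29.2 ± 2.5 FPKM in cesium, 35.2 ± 2.8 in low potassium and 23.4 ± 1.2 in control roots. Of 8 tested plasma membrane proton ATPase genes, 0 were higher and 3 lower in cesium, and 2 were higher and 1 lower in low potassium. For a list of 8, the low potassium counts lie near the 18.8% of all genes in each direction. Between cesium and low potassium, 0 of these 8 were higher, 3 were lower and 5 did not pass. AHA2, the main proton pump of roots, averaged 403 ± 76 FPKM in cesium, 1124 ± 41 in low potassium and 502 ± 51 in control roots. It rose in low potassium (log2 change 1.16, SE 0.15, limma adjusted p = 0.000358), and its cesium change of -0.33 did not pass (limma adjusted p = 0.127). AHA4 had the smallest adjusted p of the pump list in cesium against control, averaging 4.59 ± 0.65 against 12.8 ± 0.5 FPKM (log2 change -1.31, SE 0.10, limma adjusted p = 4.455e-05). Cesium and low potassium roots differed in AHA2 by -1.50 (SE 0.15, limma adjusted p = 9.97e-05), and in AHA4 by -1.41 (limma adjusted p = 1.87e-05).

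**Figure D5:**
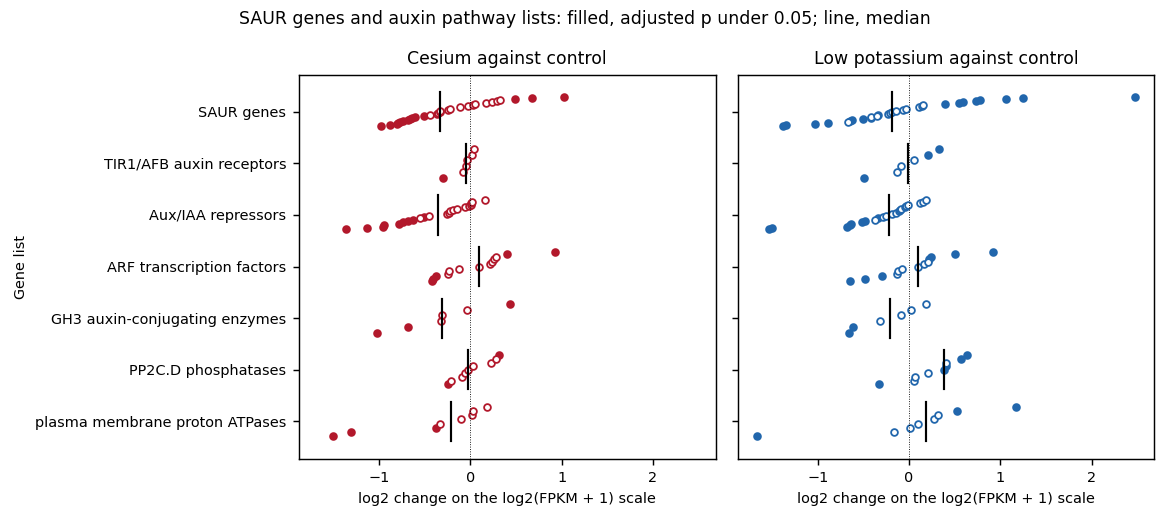
Log2 change on the log2(FPKM + 1) scale (x axis) of each tested gene of the SAUR family and 6 auxin pathway lists (y axis) in cesium (left) and low potassium (right), each against control. Filled points passed an adjusted p of 0.05 and black lines are medians. No Aux/IAA gene passed as higher in either panel, and the SAUR medians are -0.33 and -0.19.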

How the data were processed

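Per the labels' protocols, root RNA was extracted with Trizol and made into strand-specific libraries. Per the submitters' processing notes the genome was TAIR10 and the tools were Cufflinks 2.2.1, STAR 2.5.0c and Bowtie2 2.3.4.1, with no role stated for each. In the deposited files the authors gave FPKM per gene and library, and tables of log2 fold changes, p-values and q-values of each treatment against control. The scaling of FPKM between libraries and the assignment of reads in overlapping genes are not given in the sources used.

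Here 5 genes with a status other than OK in some library were dropped. The 19536 genes whose 9-library mean reached 1 FPKM were tested on log2(FPKM + 1) with limma 3.58.1 and an intensity trend (R 4.3.3), as a one-way model of the 3 groups. Benjamini-Hochberg adjustment ran within each comparison, at a threshold of 0.05. Libraries with the same number did not vary together (correlations of deviations -0.12 to 0.28), so the numbers were not taken as pairs. Members, gene lists and tests were chosen with earlier results of these data known. Named members are those past the threshold (at most 8 in each direction), the 6 most abundant and the measured SAUR19, SAUR41 and SAUR63 subfamilies, and any further member is named after its values were seen. Each pathway list names at most 2 genes, by smallest adjusted p. Phosphatases are given by locus because RefSeq does not name them as clade D. Alternatives were other pseudocounts, filters, scalings, models and leaving out each library. Coordinates are 1-based, and sequences are from RefSeq TAIR10.1, in which 71 of 78 members have the deposited region. Coding identity was counted over the longer of both sequences in a global alignment (Biopython 1.88).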

Additional observations from a re-analysis of the deposited data

How the results depend on the processing

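Requiring a log2 change of at least 1 as well left 1 member higher and 0 lower in cesium against control, 3 higher and 3 lower in low potassium against control, and 1 higher and 3 lower in cesium against low potassium; a stricter rule on the same fit gives fewer calls by construction. Testing only genes with a mean of 5 FPKM left 1 member higher in cesium against low potassium, with fewer members tested. Leaving out 1 library at a time gave 7 to 12 members lower in cesium against control, with 7 without control replicate 3, and 1 to 3 members higher in cesium against low potassium, with 1 without low potassium replicate 1 or 2; the cause was not tested. The other counts stayed within 1.5 times of the reported ones under the alternatives run. SAUR31, never called, changed direction: its log2 change ranged from -0.18 to 0.39 in cesium against control, from -0.080 to 0.018 in low potassium against control and from -0.14 to 0.43 in cesium against low potassium. With the replicate block the counts were 3 higher and 11 lower in cesium, 8 and 8 in low potassium, and 2 and 6 between the treatments. Under that block SAUR8 missed the threshold in low potassium against control (adjusted p = 0.0514) and SAUR38 missed it between the treatments (adjusted p = 0.0626). SAUR38 also missed it there under quantile normalization (adjusted p = 0.116). Of the 9 libraries, 3 correlated best with a library of their own number. Median log2 changes of the members kept their sign under all alternatives, ranging from -0.41 to -0.06 in cesium, from -0.22 to -0.04 in low potassium and from -0.21 to -0.04 between the treatments. They lay nearest 0 with no filter, where members with a mean below 1 FPKM enter. Fragment totals were not used, so no counting interval stands beside members near 0 FPKM, and 3 libraries a group limit the precision of all values.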
